A study of Mus musculus with 20 samples.

Results

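The Hox cluster genes were taken as every gene of the expression table whose symbol is Hox, a cluster letter from a to d and a number, which gave 39 of the 24411 genes in the table: 11 in HoxA, 10 in HoxB, 9 in HoxC and 9 in HoxD. RNA was sequenced from cultured granule neurons of the mouse cerebellum, the most numerous excitatory cells of its cortex, and the design asks whether KDM6B activity alone can undo effects of losing the mouse protein. A control group was set beside cultures with an shRNA to the endogenous Kdm6b (shKdm6b) and beside 2 groups that combined this shRNA with the human enzymatic domain, in its active or in its catalytically dead form. The 3 shRNA groups therefore all carried the knockdown, and the virus that the control cultures received is not named by the labels. Infection was on day 1 in vitro, AraC, which kills dividing cells, was added on day 2, and RNA was taken on day 7. The sources used here give no mouse strain, age or promoter of the constructs.

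Hox genes encode homeodomain transcription factors that give cells along the head to tail axis their regional identity. The genes of a cluster lie in the order in which they are used: low paralogue groups act toward the head, in hindbrain and neck, and high groups toward the trunk, limbs and tail. Clusters that are not in use are kept silent by Polycomb complexes through trimethylation of lysine 27 of histone H3, the mark that KDM6B removes. Granule neurons arise from the foremost hindbrain segment, which lies in front of the usual Hox domain.

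Each group held 5 libraries, numbered 1 to 5 in the labels, with 14200745 to 21179300 estimated counts and 16873 to 17351 genes detected per library. Nothing in the labels ties each library to a culture or animal of its own, so every p-value reflects only the spread among these samples, which may be technical. Kdm6b itself had 144 ± 40.5 CPM (counts scaled to library size; mean ± SD, n = 5) in control and 83.0 ± 28.3 with shKdm6b, and was lower in 5 of 5 same-numbered pairs (edgeR log2 fold change with the number as a block -0.88 ± 0.21 (SE), adjusted p = 0.0231; exact permutation p = 0.0317, and 0.190 adjusted over 6 group pairs); it was not called without the block. It had 212 ± 109 CPM with the active domain and 176 ± 92.2 with the dead domain; whether reads of the human domain were counted for Kdm6b was not tested. All 10 granule neuron markers were present in every group, at 1066 to 4941 CPM summed, but so were the 10 markers of meningeal and fibroblast cells, at 3350 to 24124 CPM, and the 6 of astrocytes, at 2086 to 15065 CPM. In such mixed cultures fewer cells of a type and less RNA per cell cannot be told apart.

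The clusters were near silent. The 39 genes drew 5652.2 estimated counts over all 20 libraries, and 6 of them (Hoxa6, Hoxa9, Hoxb6, Hoxd1, Hoxd10 and Hoxd13) had no count in any. A further 20 never reached 10 counts in a library. Of the 13 that did, 9 belong to paralogue groups 1 to 4, the hindbrain and neck groups, which hold 12 genes and took 91.5% of all Hox counts. Groups 5 to 8 held 11 genes and 4.67% of the counts, and groups 9 to 13 held 16 genes and 3.79%. One gene, Hoxd3, carried 3642.1 of the counts, mostly in the shRNA libraries. Without it the other 38 genes had 2010.1, of which groups 1 to 4 took 76.2%, groups 5 to 8 13.1% and groups 9 to 13 10.6%.

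**Figure D1:**
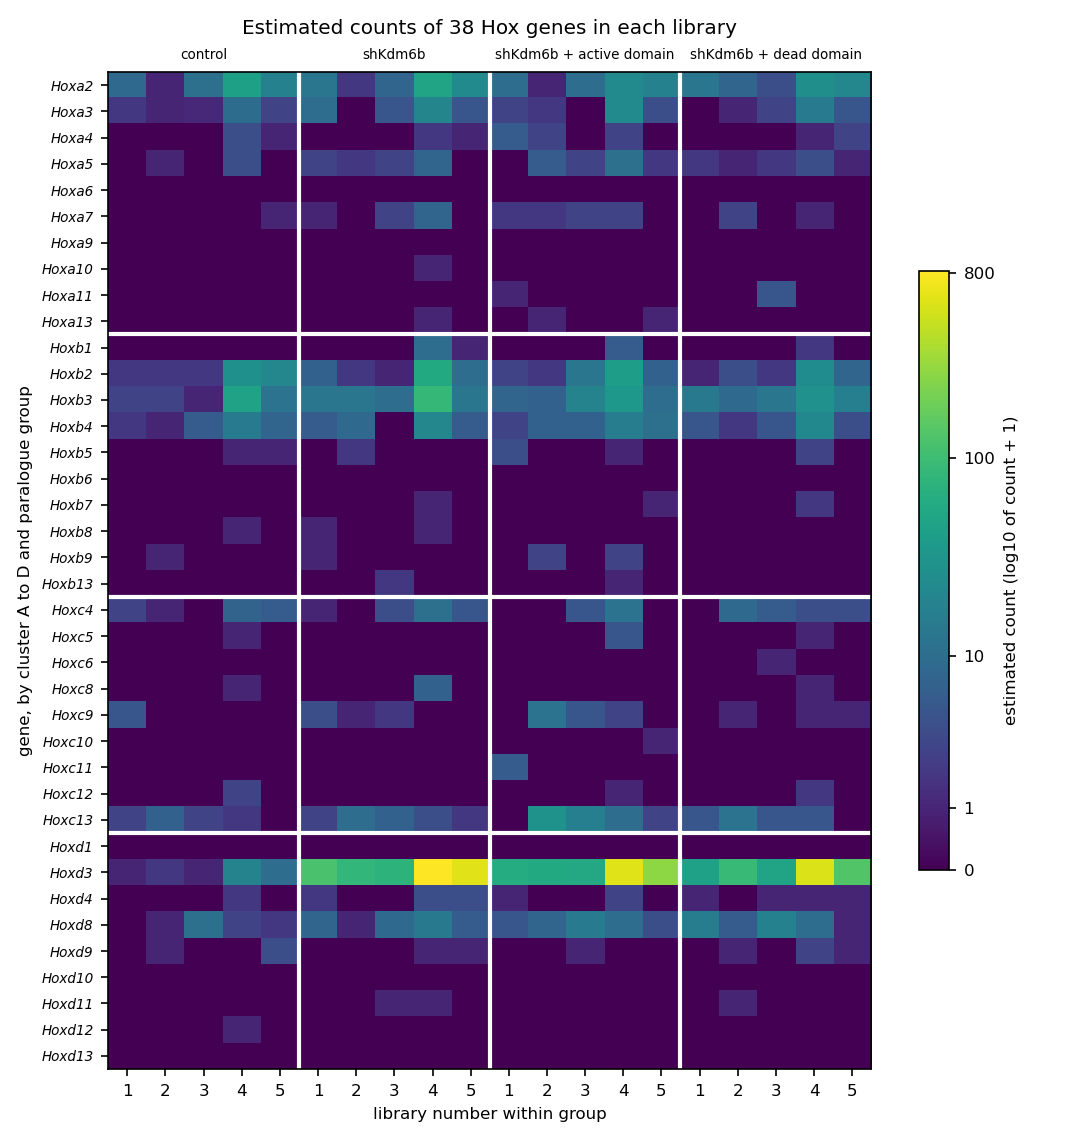
Estimated counts of 38 Hox genes (vertical axis, by cluster from A to D and by paralogue group) in the 20 libraries (horizontal axis, by group and library number), coloured by log10 of the count + 1. Hoxd3 reaches 45.7 to 812.8 counts in the 15 shRNA libraries and 1 to 19 in control, while most other genes stay near 0.

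On GRCm38 (mm10; positions from GENCODE M21), HoxA spans chr6:52155590-52260880 on the minus strand, HoxB chr11:96194316-96368256, HoxC chr15:102921103-103036852 and HoxD chr2:74668310-74765142, these 3 on the plus strand. The HoxD stretch around Hoxd3 is the one the results turn on. Hoxd3 is annotated at chr2:74711927-74748442 and encloses the annotated span of Hoxd4 (chr2:74711929-74729160), while Hoxd8 ends before it (chr2:74704615-74707933). To show how the 3 neighbours differ at their RefSeq starts, the 250 bases before each start on the plus strand are given 5′ to 3′ from RefSeq (GRCm38.p6), with CpG dinucleotides in capitals. They are chr2:74711743-74711992 for Hoxd3, chr2:74721728-74721977 for Hoxd4 and chr2:74704365-74704614 for Hoxd8.
Hoxd3: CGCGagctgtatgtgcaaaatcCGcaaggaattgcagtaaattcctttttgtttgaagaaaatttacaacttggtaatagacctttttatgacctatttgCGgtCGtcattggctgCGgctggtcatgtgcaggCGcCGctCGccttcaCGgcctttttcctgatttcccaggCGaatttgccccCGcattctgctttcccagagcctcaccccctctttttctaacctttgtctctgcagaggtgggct
Hoxd4: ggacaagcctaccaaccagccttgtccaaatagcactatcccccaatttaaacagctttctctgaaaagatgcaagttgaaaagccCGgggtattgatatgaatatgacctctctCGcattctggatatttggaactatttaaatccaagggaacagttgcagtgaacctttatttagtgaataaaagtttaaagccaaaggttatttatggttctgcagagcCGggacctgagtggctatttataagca
Hoxd8: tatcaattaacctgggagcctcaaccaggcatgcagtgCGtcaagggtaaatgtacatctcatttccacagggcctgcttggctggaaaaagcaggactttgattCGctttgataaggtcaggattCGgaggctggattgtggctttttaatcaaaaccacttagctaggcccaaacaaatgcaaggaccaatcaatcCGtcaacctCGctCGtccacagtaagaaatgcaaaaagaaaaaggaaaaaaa
The Hoxd3 window holds 12 CpGs, that of Hoxd8 6 and that of Hoxd4 3, against a median of 6 over 32851 RefSeq promoter windows of this length. The 24 windows found for 22 of the 39 Hox genes held 2 to 35 CpGs, with a median of 12.5, so Hoxd3 is near the middle of its family. On either strand, the caudal and posterior Hox type motif TTTATG was found once before Hoxd3 and once before Hoxd4, and in 10.8% of all windows. AGGTCA, a nuclear receptor half-site, was found once before each of the 3 genes and in 14% of all windows. CCAAT was found once before each of the 3, and in 33.8%. TATAAA was found before Hoxd4 alone among the 3, and in 12.4% of all windows, and the Hox with Pbx type motif TGATNNAT before none of them, and in 7.68%. Such matches describe the letters only, and which start was used in these cultures was not measured.

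Hoxd3, a group 3 factor that shapes the neck vertebrae, was the 1 gene of the 7 tested whose control and shRNA libraries were fully separated. Its estimated counts were 1, 2, 1, 19 and 10 in control libraries 1 to 5, and 119.2, 83.1, 75, 812.8 and 598.3 with shKdm6b. They were 62.0, 58.2, 56.5, 589.4 and 262.6 with the active domain, and 45.7, 91.3, 48.9, 574.2 and 131.9 with the dead domain. Every shRNA library stood above every control library, and in all 4 groups the libraries numbered 4 and 5 were the 2 highest. Scaled to library size, Hoxd3 had 0.383 ± 0.469 CPM in control, 17.6 ± 17.5 with shKdm6b, 10.6 ± 11.5 with the active domain and 10.9 ± 14.4 with the dead domain (mean ± SD, n = 5 each). The SDs are about as large as the means, with libraries 4 and 5 far above the other 3 in each shRNA group except dead domain library 5.

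**Figure D2:**
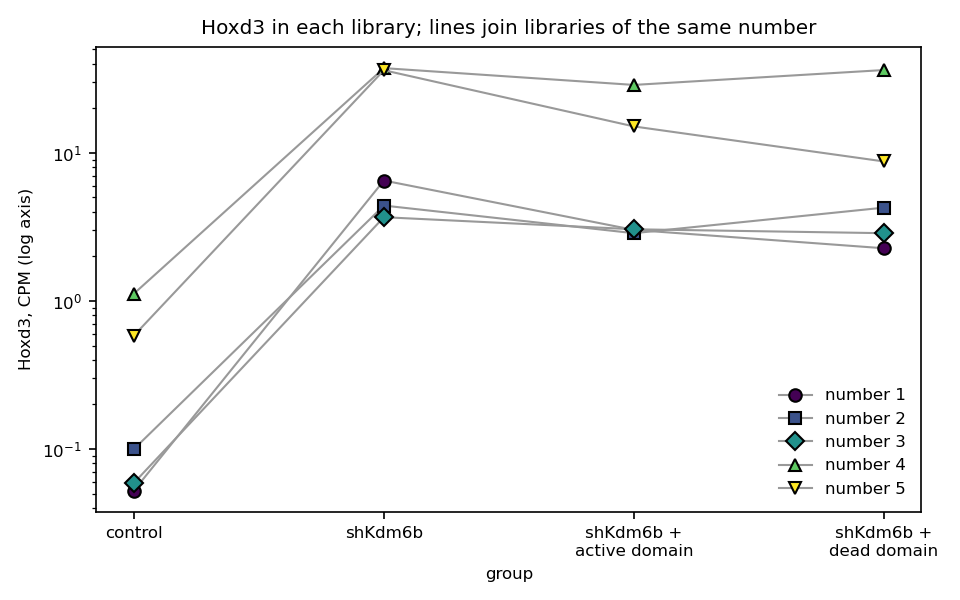
Hoxd3 level in CPM (vertical log axis) in each of the 20 libraries, by group, with lines that join libraries of the same number. All 5 lines go up from control (0.0524 to 1.12 CPM) to shKdm6b (3.68 to 37.4 CPM), and none comes back to its control value in a group with a domain.

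Within a number, shKdm6b exceeded control 124-fold for number 1 (95% interval from counting 21.9 to 4948), 44.2-fold for number 2 (11.8 to 371) and 62.4-fold for number 3 (10.9 to 2498). These 3 intervals are wide because their control libraries held 1 or 2 counts. For numbers 4 and 5, with 19 and 10 control counts, the ratios were 33.3 (21.2 to 55.6) and 62.0 (33.5 to 130). With the active domain the same ratios ran from 25.6 to 57.7, and with the dead domain from 15 to 48.7. The lowest was that of dead domain library 5, with an interval of 7.91 to 32, and intervals cover counting error only.

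Whether Hoxd3 passed the edgeR test across all 15284 genes depended on the treatment of the library number, while DESeq2 called it either way. In edgeR's quasi-likelihood fit of group means alone, none of the 7 Hox genes tested was called (adjusted p below 0.05) in shKdm6b against control, where 0.00654% of all genes tested were called. Hoxd3 had a log2 fold change of 5.53 ± 1.17 (SE) there, with an adjusted p of 0.115; it was the single Hox gene with an unadjusted p below 0.05, and DESeq2 without a block called it (adjusted p = 1.18e-05, among 0.428% of all genes). With the library number as an additive block, Hoxd3 rose by 5.60 ± 0.34 (edgeR adjusted p = 1.89e-07), 1 Hox gene of 7 against 4.14% of all genes. It was higher in 5 of 5 pairs. Without the 4 libraries numbered 4 it also passed without a block (5.96 on the log2 scale, adjusted p = 0.0284). The exact permutation test of its mean log2 CPM gave p = 0.00794, the smallest that 5 against 5 libraries allow, and 0.0159 adjusted over the 6 pairs of groups. The exact sign-flip test of the 5 same-numbered differences gave 0.0625, the smallest that 5 pairs allow. Among Hox genes, both exact tests were run only for those called in a fit. Their p-values are not corrected for that choice and support nothing of their own. Groups that do not overlap were found for 1 of the 7 Hox genes and 0.857% of all genes. Hoxd3 is under the level of the expression filter in control and passed it through the shRNA groups. Shares of 1 of 7 Hox genes, here and in the other comparisons with control, therefore support nothing of their own.

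Both groups with a domain stayed far above control. With the active domain Hoxd3 differed from control by 4.82 ± 0.34 on the log2 scale in the blocked fit (edgeR adjusted p = 2.19e-06), as the 1 Hox gene called of 7, against 1.96% of all genes. With the dead domain the value was 4.81 ± 0.35 (adjusted p = 2.42e-06), again 1 of 7, against 1.18% of all genes. Without the block the edgeR adjusted p-values were 0.389 and 0.504; neither comparison then called a Hox gene or any other gene (0% of those tested), 1 Hox gene in each had an unadjusted p below 0.05, and DESeq2 called Hoxd3 in both (adjusted p = 0.00127 among 0.164% of all genes, and 0.00125 among 0.111%). Libraries did not overlap with control for Hoxd3 alone of the 7, against 0.667% of all genes with the active domain and 0.51% with the dead domain, and both were higher in 5 of 5 pairs. The 3 comparisons share the 5 control libraries and are therefore not independent.

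Against shKdm6b, Hoxd3 was lower in 5 of 5 same-numbered pairs with either domain, but no test across genes called it. With the active domain the libraries held 41.8 to 82.8% of the Hoxd3 CPM of the same-numbered shKdm6b library, and with the dead domain 24.2 to 97.1%. The blocked log2 differences were -0.78 ± 0.23 (edgeR adjusted p = 0.734, unadjusted 0.00402) and -0.79 ± 0.24 (adjusted p = 1, unadjusted 0.004). The share of all genes called with the block was 0.00654% in the first comparison and 0% in the second, and without it 0% in both. No Hox gene was called in either, with or without the block, by edgeR or by DESeq2, and Hoxd3 alone had an unadjusted p below 0.05 in edgeR with the block (none without it). The exact permutation p-values were 0.508 and 0.437, and both exact sign-flip values were 0.0625. The active and dead domain groups differed by 0.01 ± 0.24 (adjusted p = 1), with the active domain higher in 3 of 5 pairs, and no Hox gene was called there or had an unadjusted p below 0.05, against 0.00654% of all genes called with the block and 0% without it. No Hox gene separated the libraries of any 2 shRNA groups, against 0.0523% of all genes for the active domain and 0.0458% for the dead domain against shKdm6b, and 0.0523% between the domains.

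Reads of overlapping genes limit what can be said of Hoxd3. In GENCODE M21 it shares 388 exon bases with Hoxd4 on the same strand, 347 with the antisense Hoxd3os1 and 21 with the antisense Haglr. It also shares 2225 with Gm28230, a same-strand gene model that has no entry under that symbol in the table. The salmon estimate divides reads among transcripts, and how the counting treated strand and Gm28230 is not stated in the labels. The overlapping genes in the table stayed low where Hoxd3 was high: Hoxd4 had at most 4 counts in a library, Haglr and Hoxd3os1 at most 3 each, and Mir10b, a microRNA gene inside the locus, none.

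No other HoxD gene was called. Hoxd8, a trunk patterning gene and the other HoxD member that passed the filter, had 0, 1, 11, 3 and 2 counts in control, 8, 1, 9, 14 and 6 with shKdm6b, 5, 8, 15, 10 and 4 with the active domain, and 16, 6, 18, 10 and 1 with the dead domain. Control and shRNA libraries overlapped. Of the control libraries only number 3 reached 10 counts, so Hoxd8 too passed the filter mainly through the shRNA groups. Its log2 differences from control with the block were 1.12 ± 0.64, 1.27 ± 0.63 and 1.61 ± 0.62 (edgeR adjusted p = 0.457, 0.418 and 0.300), and it was higher in 4, 5 and 4 of 5 pairs. Hoxd4 had 2 counts in all control libraries together, 10 with shKdm6b, 4 with the active domain and 4 with the dead domain. Hoxd9 had 13 counts in all 20 libraries, Hoxd11 3 and Hoxd12 1. Without Hoxd3 the HoxD cluster summed to at most 0.649 CPM in a control library and at most 0.920, 0.856 and 1.11 CPM in the shKdm6b, active domain and dead domain libraries. Hoxd3 made up 7.78% of all Hox counts in control, 73.4% with shKdm6b, 64.3% with the active domain and 67.2% with the dead domain.

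**Figure D3:**
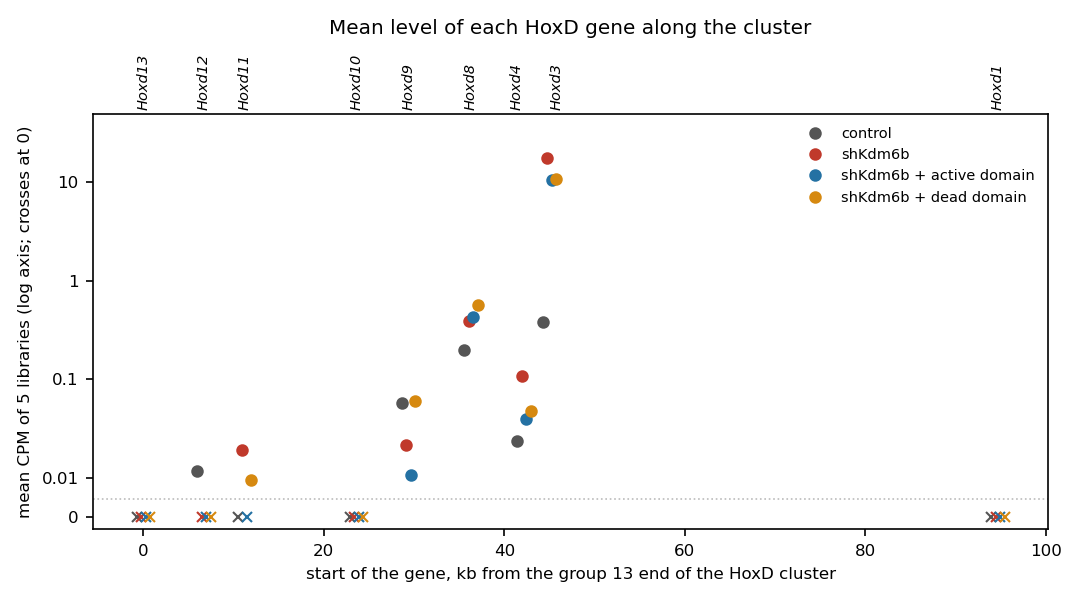
Mean CPM of 5 libraries in each group (vertical log axis, with means of 0 drawn as crosses on the bottom line) for the 9 HoxD genes at the distance of their annotated start from the group 13 end of the cluster (horizontal axis, kb). Points are set slightly apart sideways, and Hoxd4 and Hoxd3, which start at nearly the same place, are drawn left and right of it. Hoxd3 lies at 10.6 to 17.6 CPM in the 3 shRNA groups and 0.383 in control, and no other HoxD gene exceeds 0.565.

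Per kb of annotated exon, which allows genes to be compared, the order of levels was different in control. There Hoxa2, which patterns the hindbrain and the jaw and ear region, led the genes described here with 0.543 CPM per kb, followed by Hoxb2 with 0.184, Hoxb3 with 0.178 and Hoxb4 with 0.145. Hoxd3 had 0.0915, and Hoxc4, Hoxd8 and Hoxc13 0.0652 to 0.0756. The CPM of these genes overlap between control libraries, so neighbours in this order are not separated. With shKdm6b Hoxd3 reached 4.21 CPM per kb and Hoxa2 came next at 0.547.

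No HoxA gene was called in any comparison. Hoxa2, which passed the filter, had 9, 1, 11, 44 and 18 counts in control, 13, 2, 8, 49 and 23 with shKdm6b, 10, 1, 10, 24 and 18 with the active domain, and 13, 8, 4, 27 and 21 with the dead domain. In each group Hoxa2 was highest in the library numbered 4 and lowest in number 2 or 3. Hoxa3, which shapes thymus and parathyroid, had 2, 1, 1.1, 9.7 and 3 counts in control, 10, 0, 5, 20 and 5 with shKdm6b, 3, 2, 0, 23.8 and 4 with the active domain, and 0, 1, 3, 14.8 and 5 with the dead domain. Hoxa5, a gene of the neck region and lung, had 0, 1, 0, 4 and 0, then 3, 2, 3, 8 and 0, then 0, 6, 3, 11 and 2, and last 2, 1, 2, 4 and 1 counts in the same order of groups. Both genes overlapped between all groups and were too low to be tested. Of the other HoxA genes, Hoxa4 reached at most 6 counts in a library, Hoxa7 8, Hoxa11 5, and Hoxa10 and Hoxa13 1 each.

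In HoxB the counts lay at the head end of the cluster. Hoxb3 had 3, 3, 1, 46 and 12 counts in control, 13, 13, 10, 86.2 and 13 with shKdm6b, 8, 7, 19, 35 and 10 with the active domain, and 14, 9, 13, 29 and 17 with the dead domain. It was higher in 5 of 5 pairs in shKdm6b against control, with a log2 difference of 1.04 ± 0.45 that did not pass (edgeR with block, adjusted p = 0.280, unadjusted 0.0349; without block 0.83 ± 0.82, adjusted p = 1). Hoxb2, a hindbrain gene, had 2, 2, 2, 28 and 21 counts in control, 7, 2, 1, 58 and 10 with shKdm6b, 3, 2, 13, 41 and 7 with the active domain, and 1, 4, 2, 25 and 8 with the dead domain. Hoxb4, which acts in the neck region and is used in blood stem cells, had 2, 1, 6, 15 and 8 counts in control, 6, 9, 0, 21 and 6 with shKdm6b, 3, 7, 7, 16 and 11 with the active domain, and 5, 2, 5, 22 and 4 with the dead domain. Both overlapped between all groups and were highest in library 4 of each. Hoxb1, which gives the facial nerve segment of the hindbrain its identity, was at 0 in 16 of the 20 libraries, including all 5 control libraries, where a count of 0 allows up to 3 counts in each. It had 10 counts in shKdm6b library 4, 1 in shKdm6b library 5, 6 in active domain library 4 and 2 in dead domain library 4. The remaining HoxB genes, from Hoxb5 to Hoxb13, never exceeded 4 counts.

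No HoxC gene passed the filter. Hoxc13, at the tail end of the cluster and known for its part in hair and nail, had 3, 7, 3, 2 and 0 counts in control, 3, 10, 7, 4 and 2 with shKdm6b, 0, 30, 17, 10 and 3 with the active domain, and 5, 12, 5, 5 and 0 with the dead domain. Tested without the filter, its log2 difference between the active domain and control was 1.73 ± 0.67 with the block (edgeR adjusted p = 0.311, unadjusted 0.0187). Hoxc4, at the head end, had 3, 1, 0, 7.5 and 6 counts in control, 1, 0, 4, 11 and 5 with shKdm6b, 0, 0, 5, 12 and 0 with the active domain, and 0, 9, 6, 4 and 4 with the dead domain. Hoxc9, which specifies thoracic motor neurons, had 5 counts in control library 1 and 0 in the other 4, then 4, 1, 2, 0 and 0, then 0, 12, 5, 3 and 0, and last 0, 1, 0, 1 and 1. The other 6 HoxC genes reached 1 to 7.1 counts at most. All these counts overlapped between the groups.

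**Figure D4:**
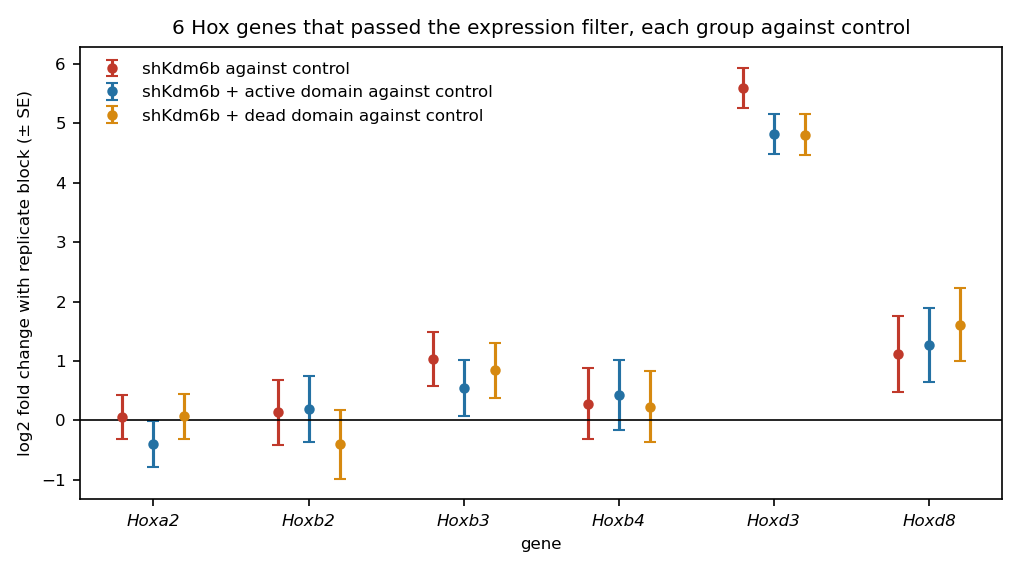
Log2 fold change against control with the replicate block (vertical axis, ± SE) for 6 Hox genes that passed the filter (horizontal axis), in shKdm6b, shKdm6b with the active domain and shKdm6b with the dead domain. Hoxd3 lies at 4.81 to 5.60, and the other 5 between -0.40 and 1.61.

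The 7 tested genes had a median log2 difference of 0.28 in shKdm6b against control with the block (0.01 over all 15284 genes), 0.43 with the active domain (0.02 over all) and 0.23 with the dead domain (0.00 over all). A gene such as Hoxd3, which is under the filter's level in control and passed it through the shRNA groups, had to differ, so these medians support nothing of their own. Summed over all 38 genes other than Hoxd3, the level was 1.83 to 10.7 CPM in control, 2.87 to 14.5 with shKdm6b, 2.68 to 10.9 with the active domain and 2.86 to 10.5 with the dead domain. These ranges overlap, and within numbers the sum was higher than control in 4 of 5 pairs with shKdm6b and with the active domain and in 3 of 5 with the dead domain, where 1 was lower and 1 equal to the digits printed. The sum over paralogue groups 5 to 8, which stayed at 0 to 0.650 CPM in control, 0.266 to 1.79 with shKdm6b, 0.403 to 1.47 with the active domain and 0.133 to 1.39 with the dead domain, was higher in 5, 5 and 4 of 5 pairs. Of the 264.1 counts of paralogue groups 5 to 8, Hoxd8 alone held 148. No test of the sums was made. Of the 33 Hox genes with a count, tested without the filter and with the block, Hoxd3 was likewise the 1 called in each comparison with control (2.84%, 1.21% and 0.793% of all genes). None was called among the shRNA groups, where 0.00505%, 0% and 0.00505% of all genes were called for the active domain and the dead domain against shKdm6b and for the active against the dead domain.

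Several head-end genes, none of them called between groups, differed by library number. In the 4 libraries numbered 4, Hoxa3 had 0.591 to 1.17 CPM against 0 to 0.547 in the other 16, and Hoxb2 had 1.58 to 2.67 against 0.0491 to 1.23. Hoxb3 had 1.71 to 3.96 CPM against 0.0590 to 1.13, and Hoxb4 0.782 to 1.39 against 0 to 0.633. For these 4 genes of the 13 that reached 10 counts, the libraries numbered 4 did not overlap with any other. The number was singled out after the values were seen, so this is a description, and no group comparison is involved since each group has 1 library of each number. The same 4 libraries had the highest summed astrocyte markers, at 11498 to 15065 CPM against 2086 to 6827 in the others, and the lowest granule neuron markers, at 1066 to 1863 CPM against 2888 to 4941. Markers of caudal brainstem and spinal neurons, at 28.6 to 46.4 CPM, overlapped with the 20.8 to 50.8 CPM of the others; 2 of the 10, Isl1 and Chat, were at 0 there, and at least 1 of these was at 0 in every other number too. The libraries numbered 4 were also lowest in the summed genes of PRC2 and the H3K27 demethylases (762 to 826 CPM against 1031 to 1389), of PRC1 (1294 to 1407 against 1413 to 1787) and of trithorax and COMPASS (979 to 1389 against 1766 to 2598). The part of these differences in the Hox levels was not tested.

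**Figure D5:**
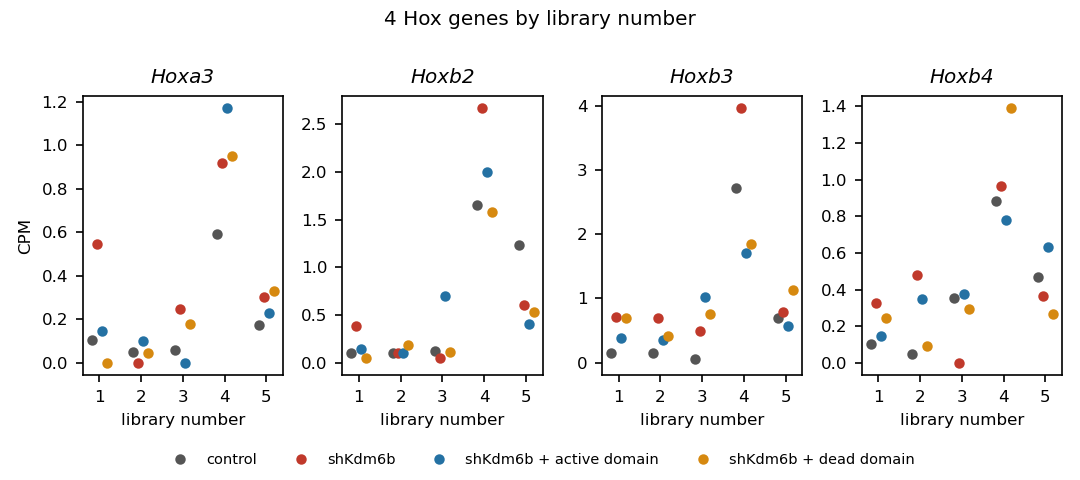
CPM of Hoxa3, Hoxb2, Hoxb3 and Hoxb4 (vertical axes) by library number (horizontal axes), with 1 point per library coloured by group. The 4 points at number 4 lie above all other points in each panel, for Hoxb3 from 1.71 to 3.96 CPM. In the Hoxb3 panel the shKdm6b point lies above the control point at all 5 numbers.

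With the block, 10 of 68 tested cell type marker entries were called in shKdm6b against control (14.7%, against 4.14% of all genes). Without the block none was called. Pdgfra is counted in both the meningeal and the oligodendrocyte list. The lists were chosen with earlier results of these data known, so this share is a description only. Of 10 granule neuron markers Barhl1 and Pax6, transcription factors of the lineage, rose (0.98 and 0.41 on the log2 scale), and Cbln3, a synaptic organiser, and Etv1 fell (-0.77 and -1.02; edgeR with block, adjusted p = 0.000355 to 0.0426, each in 5 of 5 pairs). With the block none of the 10 markers of meningeal and fibroblast cells, the 10 of endothelial and mural cells, the 6 of astrocytes or the 6 of oligodendrocyte lineage passed. Of 6 microglia markers 1 fell, the membrane protein Tmem119 (-0.67, adjusted p = 0.0293), and of 6 choroid plexus markers 1 rose, the chloride channel protein Clic6 (0.39, adjusted p = 0.0428). Of 5 tested interneuron and Purkinje cell markers, Pax2, a transcription factor of interneuron precursors, rose (1.05, adjusted p = 0.0114) and Gad1, a GABA-making enzyme, fell (-0.60, adjusted p = 0.00357). These 4 edgeR calls had 5 of 5 pairs in their direction. Meningeal and fibroblast markers summed to 3655 to 24124 CPM in control and 3527 to 18504 with shKdm6b. Of 5 tested markers of caudal brainstem and spinal neurons, Tlx3, a homeobox gene of relay neurons, was higher (0.83 ± 0.17, edgeR with block, adjusted p = 0.00885, 5 of 5 pairs). It was the only call, and the median log2 difference of the 5 was -0.07. The 10 markers of that list summed to 20.8 to 30.3 CPM in control and 23.9 to 45.1 with shKdm6b. Of 4 tested markers of skeletal and limb mesenchyme, a setting where Hox genes are used, Pitx1, a hindlimb and pituitary homeobox gene, was higher (5.35 ± 0.42, adjusted p = 3.68e-06, 5 of 5 pairs), and Tbx5, the forelimb gene, was at 0 in all libraries. Pitx1 was the only call, and the median log2 difference of the 4 tested markers was -0.29. The 8 genes of that list summed to 105 to 334 CPM in control and 91.3 to 282 with shKdm6b, and their part in the Hoxd3 difference was not tested.

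Pitx1 was also the gene whose profile over the 20 libraries was most like that of Hoxd3 (Pearson r of log2 CPM 0.970 over 20 libraries, given as a description because the libraries share groups and numbers). It had 0.362 ± 0.593 CPM in control, 14.6 ± 17.9 with shKdm6b, 6.5 ± 6.64 with the active domain and 7.14 ± 10.8 with the dead domain. The next 4 were Hs3st2, a heparan sulfate sulfotransferase (r = 0.927), Tmem211, a transmembrane protein (0.921), and the noncoding genes 2810454H06Rik (0.910) and 2810410L24Rik (0.888). Where these 5 genes lie relative to Hoxd3 is not given here. Since Hoxd3 separates control from the shRNA libraries, genes chosen for likeness to it do so by choice, and their log2 differences in shKdm6b against control, 2.06 to 5.35 with the block, are a description only.

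Of 86 tested genes known to set or read Hox expression, 6 were called in shKdm6b against control with the block (6.98%, against 4.14% of all genes), and none without it. Kdm6b, the target of the shRNA, is 1 of these 6. These lists too were chosen with earlier results known, so the share is a description only. Of 9 Hox cofactors of the TALE class, which bind DNA beside Hox proteins, 1 rose with the block: Meis1 (0.31 ± 0.08, edgeR adjusted p = 0.0257, 5 of 5 pairs; list median 0.01). Of 15 tested genes of the retinoic acid pathway, the signal that switches on head-end Hox genes, none rose and 2 fell, the binding protein Crabp2 (-1.12 ± 0.24, adjusted p = 0.0101) and the receptor Rara (-0.37 ± 0.07, adjusted p = 0.00748), each in 5 of 5 pairs, with a list median of -0.11. Of 9 tested upstream regulators of hindbrain Hox genes 1 fell, Zfp703, a zinc finger protein (-0.70 ± 0.08, adjusted p = 0.000190, 5 of 5 pairs; list median -0.01). Of 14 tested subunits of PRC2 and demethylases of its mark, Kdm6b alone passed (list median -0.10). Of 21 PRC1 genes 1 rose, Cbx8, a reader of the mark (0.43 ± 0.12, adjusted p = 0.0445, 5 of 5 pairs; list median 0.07), and of 18 trithorax and COMPASS genes, which oppose Polycomb, none passed (list median -0.02). All 11 ParaHox and related homeobox genes in the table were below the filter.

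No tested gene flanking the clusters was called, and the noncoding genes inside them were too low to be tested. Of 15 noncoding genes annotated inside the clusters and present in the table, 8 were at 0 in all libraries, none passed the filter, and 1, Hoxaas2, antisense at the end of Hoxa3, reached 10 counts in a library (13). Its levels were 0.162 ± 0.219 CPM in control and 0.207 ± 0.245 with shKdm6b. Of 15 tested genes flanking the clusters none passed in any comparison with the block (4.14%, 1.96% and 1.18% of all genes in the 3 comparisons with control, shares at which a count of 0 among 15 says little), and their median in shKdm6b against control was 0.05. On the 2 sides of HoxD, Mtx2, 60.7 kb beyond Hoxd1, had 39.9 ± 5.64 CPM in control and 47.3 ± 7.22 with shKdm6b, and Lnp, the older symbol of Lnpk on the Hoxd13 side, had 40.8 ± 12.5 and 33.2 ± 8.26. Evx2, the homeobox gene 8.8 kb beyond Hoxd13, had 1 count in all 20 libraries.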

How the data were processed

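The authors deposited 1 table of estimated counts per gene and library, named as salmon merged gene counts, and used the genome build mm10, per the submitters' processing notes. Its salmon version, annotation and strand setting are not stated in the labels. Of the values in a library, 7.03 to 11.2% were not whole, so counts were rounded before testing. The members and lists were chosen with earlier results of these data known.

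Genes were filtered with filterByExpr, which kept 15284 of 24411, scaled with TMM and tested with edgeR 4.0.16 in R 4.3.3 (quasi-likelihood, robust, two-sided, Benjamini-Hochberg over all genes tested, threshold 0.05), in 1 fit of 20 libraries with 6 contrasts. CPM use TMM-scaled library sizes, and log2 CPM a prior count of 1. DESeq2 1.42.0, RLE factors, no filter, pairs of groups alone and leaving out libraries were alternatives. Both fits were checked on simulated counts with number effects and known changes. That check did not look separately at genes with few control counts, such as Hoxd3.

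The labels number the libraries 1 to 5 in each group without saying what a number stands for. In all 30 pairs of libraries with 1 number, deviations from the group mean were correlated across genes. Pearson r was 0.361 to 0.881, above the limit of 0.1. The 120 other pairs had a median of -0.205 and ran from -0.581 to 0.572, so some of them also exceed the limit. Deviations within a group cancel, so this median is not a neutral baseline. Because all same-numbered pairs passed the limit, the fit with the number as a block is given beside results it changes. A chi-square per degree of freedom of 27.9 to 395 between libraries within groups gave no sign of duplicates, and all 20 were kept. Exact tests used Python 3.11.15.

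Members that passed the filter or reached 10 counts are given in every library, except 1 that is counted in the totals and not reported here. Of other lists, up to 4 members past the threshold with the block are named by smallest p. 4 genes listed as noncoding genes of the clusters lie outside them in GENCODE M21 or have no position there, and were left out.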

Additional observations from a re-analysis of the deposited data

Results flagged for a closer look

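In 13 of 52 groups of 5 libraries (13 members in 4 groups each), 1 library stood apart from the other 4 by Dixon's criterion. Chance gives about 1 in 20 for normally distributed values, a rate that is no guide for counts near 0, where a single library with counts is always singled out. In 11 of the 13 it was the library numbered 4. In control these were Hoxa3 at 0.591 CPM (others 0.0499 to 0.175), Hoxa5 at 0.236 (0 to 0.0499) and Hoxb3 at 2.72 (0.0590 to 0.701). With shKdm6b they were Hoxb1 at 0.460 (0 to 0.0606), Hoxb2 at 2.67 (0.0491 to 0.606) and Hoxb3 at 3.96 (0.491 to 0.787). With the active domain they were Hoxa3 at 1.17 (0 to 0.230) and Hoxb1 at 0.293 (0 in the others), and with the dead domain Hoxb1 at 0.127 (0 in the others), Hoxb4 at 1.39 (0.0939 to 0.293) and Hoxd3 at 36.3 (2.27 to 8.76). The other 2 were in control: Hoxc9 at 0.262 CPM in library 1 (0 in the others) and Hoxd8 at 0.649 CPM in library 3 (0 to 0.177). Several rest on 10 or fewer counts.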

How the results depend on the processing

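The count of Hox genes called in a comparison with control was 0 without the replicate block and 1, Hoxd3, with it, in all 3 comparisons; the block changed no other call of a Hox gene. It was also 1, Hoxd3, with DESeq2 with or without the block, and with the block under RLE factors, no expression filter, no libraries numbered 4, no libraries numbered 5, or the 2 groups alone. Without the libraries numbered 4 and without the block it was 1 in shKdm6b against control (edgeR adjusted p = 0.0284) and 0 for both domains. Leaving out 1 library at a time gave 0 without the block. With the block it gave 1 in shKdm6b against control and in the dead domain against control, and 1 to 2 in the active domain against control (0 to 1, 0 to 1 and 0 to 2 over both fits). The second gene was Hoxc13, called when active domain library 1 was left out. The log2 fold change of Hoxd3 with the block then ran from 5.33 to 5.78 with shKdm6b, 4.76 to 4.90 with the active domain and 4.59 to 5.07 with the dead domain. In the 3 comparisons among the shRNA groups, no alternative called a Hox gene. Depth limits the other members: of 39, 26 never reached 10 counts in a library, and what size of change could have been seen in them was not tested.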
